A study of Mus musculus with 6 samples.

Results

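The IFIT family was examined in 6 RNA-seq libraries of cells that the study calls mouse bone marrow mesenchymal stem cells (BMMSCs). Macrophage markers were abundant in these libraries too, as given below. The 4 members, Ifit1, Ifit2, Ifit3 and I830012O16Rik, were found by symbol among 36870 distinct symbols, and I830012O16Rik is the older symbol of Ifit3b. They had been chosen from the difference between control and siTet1/Tet2 libraries in these same data, so their levels in that contrast are given as a description and no test is attached to them. All 4 were among the 13266 genes kept for testing, those whose 6 libraries averaged 0.1 RPKM or more. RPKM is the number of reads per kilobase of transcript, scaled to the mapped reads of the library, so levels of different genes are compared here per length.

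The study compared 3 control libraries with 3 siTet1/Tet2 libraries. In both groups total RNA came from adherent bone marrow cells of C57BL/6 mice, labelled as passage p2. The siTet1/Tet2 cells received siRNAs against both Tet1 and Tet2, and the control cells received a non-targeting siRNA according to the labels, although the sequencing methods call them vehicle-treated. Tet1 and Tet2 encode enzymes that oxidise 5-methylcytosine in DNA. The replicates are numbered 1, 2 and 3 in each group, and neither the labels nor the methods say whether they were separate animals, cultures or wells, so p-values below measure only the spread between these libraries, which may be technical.

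IFIT proteins (interferon-induced proteins with tetratricopeptide repeats) are cytosolic proteins built of helical repeats that form a groove for RNA or for partner proteins. Ifit1 binds the 5′ end of foreign RNA that carries a triphosphate or a cap without ribose methylation. Members of the family can associate with each other, and some bind subunits of the translation initiation factor eIF3. Which members pair, and with which eIF3 subunit, can differ between species and was not examined here. Their genes are barely transcribed in most resting cells and are switched on by type I interferon through ISGF3, a transcription factor complex that binds the interferon-stimulated response element (ISRE) in promoters, or directly by other interferon regulatory factors. Macrophages, fibroblasts and stromal cells all respond in this way.

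The 4 genes lie together on the plus strand of chromosome 19, within 99.5 kb by the RefSeq annotation, in the order Ifit2, Ifit3, I830012O16Rik and Ifit1. Coordinates and transcripts that follow are from GENCODE M21 on GRCm38. Ifit2 spans chr19:34550694-34576419 with a longest transcript of 3818 bases in 3 exons. Ifit3 spans chr19:34583531-34588731 with a transcript of 1745 bases in 2 exons, I830012O16Rik spans chr19:34607970-34613401 with 2000 bases in 2 exons, and Ifit1 spans chr19:34640871-34650009 with 2656 bases in 2 exons. Ifit3 and I830012O16Rik are a near-identical pair. Their transcripts agree at 98.0% of 1697 aligned bases, and 521 of the 1646 stretches of 100 bases in the Ifit3 transcript (31.7%) also occur in I830012O16Rik. No stretch of this length was shared between Ifit1, Ifit2 and the Ifit3 pair. How reads matching both members of the pair were assigned is not given in the sources used here, so the values of Ifit3 and I830012O16Rik, and the split between them, are uncertain.

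The promoters are shown because the regulation of the family is known to run through the ISRE. Whether these sequences bear on the levels in these libraries was not tested. The sequences below are the 250 bases 5′ of the annotated start (RefSeq, GRCm38.p6, plus strand, 5′ to 3′). For Ifit2, which has 2 annotated starts, only the first is shown. They lie at chr19:34640639-34640888 for Ifit1, chr19:34550444-34550693 for Ifit2, chr19:34583279-34583528 for Ifit3 and chr19:34607707-34607956 for I830012O16Rik. Capitals mark each match to the ISRE core GAAANNGAAA, which on the opposite strand reads TTTCNNTTTC.
Ifit1: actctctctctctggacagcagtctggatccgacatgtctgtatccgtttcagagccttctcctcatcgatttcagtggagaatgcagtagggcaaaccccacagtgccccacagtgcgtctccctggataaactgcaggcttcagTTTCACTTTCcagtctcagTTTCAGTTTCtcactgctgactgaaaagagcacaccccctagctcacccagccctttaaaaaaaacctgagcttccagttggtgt
Ifit2: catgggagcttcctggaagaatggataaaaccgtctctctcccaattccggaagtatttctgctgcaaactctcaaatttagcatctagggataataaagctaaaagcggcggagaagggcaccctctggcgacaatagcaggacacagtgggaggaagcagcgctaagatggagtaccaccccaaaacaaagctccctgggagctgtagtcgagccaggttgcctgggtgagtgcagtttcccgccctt
Ifit3: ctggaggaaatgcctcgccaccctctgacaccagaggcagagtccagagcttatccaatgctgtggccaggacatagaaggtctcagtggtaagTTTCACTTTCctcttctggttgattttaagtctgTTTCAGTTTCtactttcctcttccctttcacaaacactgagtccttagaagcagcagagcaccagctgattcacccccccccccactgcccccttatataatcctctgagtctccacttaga
I830012O16Rik: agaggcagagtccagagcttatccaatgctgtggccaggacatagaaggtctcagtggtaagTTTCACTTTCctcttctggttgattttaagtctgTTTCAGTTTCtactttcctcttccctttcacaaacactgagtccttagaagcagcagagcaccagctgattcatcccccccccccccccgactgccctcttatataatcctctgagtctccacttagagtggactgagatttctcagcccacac

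The core was searched on both strands in windows of 300 bases, from 250 bases before to 50 bases after each start. Ifit1, Ifit3 and I830012O16Rik each held 2 matches and all 6 were read on the opposite strand. Counted from the start, the matches began at -104 and -85 in Ifit1, at -156 and -122 in Ifit3 and at -188 and -154 in I830012O16Rik. In each of the 3 promoters the match farther from the start read TTTCACTTTC and the nearer one TTTCAGTTTC. The windows of Ifit3 and I830012O16Rik were 99.2% identical over 260 aligned bases. Neither of the 2 annotated Ifit2 starts had a match in its window, which says only that these letters are not there. With 1 mismatch allowed a match was found in the second Ifit2 window, whose sequence is not shown.

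Of all genes with a window, 1079 of 27025 (3.99%) held the core in at least 1 window, and with 1 mismatch allowed the share was 38.9%. The windows also differed in CpG dinucleotides, the sites at which DNA methylation and the TET enzymes act. Ifit3 and I830012O16Rik had 1 CpG each and Ifit1 had 4, whereas the 2 Ifit2 windows had 10 and 11, against a median of 7 over all windows. DNA methylation was not measured in these libraries.

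Ifit1, which recognises the 5′ end of non-self RNA, stood at 35.1, 39.2 and 38.1 RPKM in control replicates 1, 2 and 3. In the siTet1/Tet2 replicates it stood at 0.619, 1.42 and 1.00 RPKM. The groups did not overlap, and the lowest control library was 24.7-fold above the highest siTet1/Tet2 library. The mean went from 37.4 ± 2.13 to 1.01 ± 0.400 RPKM (SD over 3 libraries), a 36.9-fold difference, and the log2 difference of RPKM + 1 was -4.27 (SE 0.14).

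Ifit2, a member also linked to apoptosis, stood at 55.2, 65.8 and 68.4 RPKM in the control replicates. The siTet1/Tet2 replicates had 1.18, 2.96 and 2.44 RPKM. Every siTet1/Tet2 library was below every control library, here by at least 18.6-fold, the smallest such gap of the 4 members. The mean went from 63.1 ± 7.01 to 2.19 ± 0.917 RPKM (SD over 3 libraries), a 28.8-fold difference, and the log2 difference of RPKM + 1 was -4.37 (SE 0.20).

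Ifit3 was the most abundant member per length, at 97.6, 112.9 and 98.5 RPKM in the control replicates. It stood at 1.46, 3.77 and 1.96 RPKM in the siTet1/Tet2 replicates. The mean went from 103.0 ± 8.62 to 2.40 ± 1.21 RPKM (SD over 3 libraries), a 43.0-fold difference. Its log2 difference of RPKM + 1, -4.99 (SE 0.21), ranked 2 from the bottom of all 13266 genes.

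I830012O16Rik, the copy of Ifit3, stood at 39.7, 43.5 and 39.4 RPKM in the control replicates. The siTet1/Tet2 replicates had 0.541, 1.34 and 0.574 RPKM, so that replicates 1 and 3 were nearly equal and replicate 2 stood above both. The mean went from 40.9 ± 2.30 to 0.818 ± 0.452 RPKM (SD over 3 libraries), a 49.9-fold difference, with a log2 difference of -4.55 (SE 0.16). Added together because of their shared sequence, Ifit3 plus I830012O16Rik had 137.2, 156.4 and 137.9 RPKM in the control replicates and 2.00, 5.11 and 2.53 RPKM in the siTet1/Tet2 replicates, a 44.7-fold difference.

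**Figure D1:**
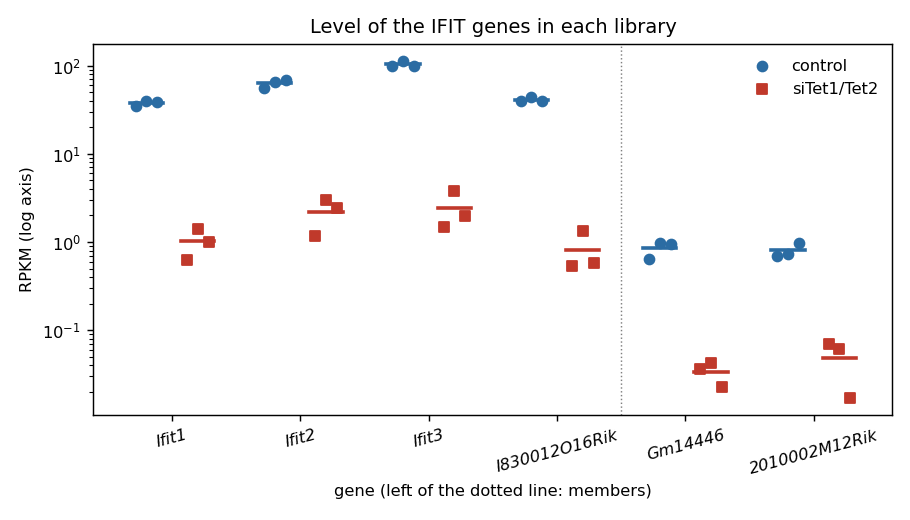
RPKM on a log axis of each IFIT gene in each library, with points for the 3 control (circles) and 3 siTet1/Tet2 (squares) libraries in the order of their replicate numbers and a line at each group mean. The 4 members lie between 35.1 and 112.9 RPKM in control and between 0.541 and 3.77 RPKM in siTet1/Tet2 libraries, and the 2 genes right of the dotted line are the low paralogs outside the family list.

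All 4 members were therefore lower in siTet1/Tet2 libraries without overlap of the groups. Over all 13266 genes, 35.9% had every siTet1/Tet2 library below every control library. With limma, 29.8% of all genes were lower at an adjusted p under 0.05. A share of 5.63% were lower at an unadjusted p under 0.05 together with a difference of more than 2-fold in RPKM + 1. The study set the same cut-offs on its own p and fold, and the added 1 leaves out some low genes with larger folds. Of the genes called at the adjusted threshold, 66.9% were lower, and this share was 52.7% with median ratio scaling of the libraries and 42.1% with quantile normalization, whereas the 4 members were lower under each. All 4 members fell within each of these groups of genes, and since this contrast was used to choose them, nothing is read from that count. Among the 11176 genes averaging 1 RPKM or more in control libraries, ranked by the fold from control to siTet1/Tet2, I830012O16Rik took place 8, Ifit3 place 13, Ifit1 place 17 and Ifit2 place 23. In control libraries the members were at high levels, with between 83.3% and 94.8% of all tested genes below their means. In siTet1/Tet2 libraries between 17.1% and 27.8% of genes lay below them.

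What was left in siTet1/Tet2 libraries was low but counted. From an estimate of the depth and the longest transcript, the siTet1/Tet2 values of Ifit1 came to about 63, 147 and 94 reads against 3501, 3423 and 3278 in control. For I830012O16Rik the estimate was 41, 104 and 40 reads against 2983, 2864 and 2555. The coefficient of variation was between 5.62% and 11.1% in control and between 39.4% and 55.2% in siTet1/Tet2 libraries for the 4 members.

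The spread within siTet1/Tet2 libraries was shared by the members. Replicate 2 was the highest and replicate 1 the lowest in 4 of 4 members, and the ratio of replicate 2 to replicate 1 was 2.29 for Ifit1, 2.51 for Ifit2, 2.57 for Ifit3 and 2.48 for I830012O16Rik, against a median of 1.01 over all genes tested. The members share these libraries, so the order was seen in 1 set of 3 libraries and not in 4. The ratio of replicate 2 to replicate 3 was less even, from 1.21 for Ifit2 to 2.33 for I830012O16Rik. Among 28 other interferon-induced genes replicate 2 was the highest siTet1/Tet2 library in 20 (71.4%), against 28.5% of all genes tested. Tet2 itself was at 0.358, 0.238 and 0.202 RPKM in siTet1/Tet2 replicates 1, 2 and 3.

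The members did not all keep the same proportions. The sum of the 4 was 227.5, 261.4 and 244.4 RPKM in control and 3.80, 9.49 and 5.98 RPKM in siTet1/Tet2 replicates. Ifit2 made up 24.3%, 25.2% and 28.0% of that sum in control and 31.0%, 31.2% and 40.8% in siTet1/Tet2 replicates, without overlap. The share of I830012O16Rik went the other way, from 17.4%, 16.6% and 16.1% to 14.2%, 14.1% and 9.60%. Ifit1 had nearly the same share throughout, 15.3% ± 0.309 in control and 16% ± 0.951 in siTet1/Tet2 libraries (SD, n = 3), and these shares overlapped. Ifit3 remained the most abundant member per length in every library but siTet1/Tet2 replicate 3, in which Ifit2 was higher and the ratio of Ifit3 to Ifit2 was 0.803. In the other 5 libraries that ratio was between 1.24 and 1.77.

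**Figure D2:**
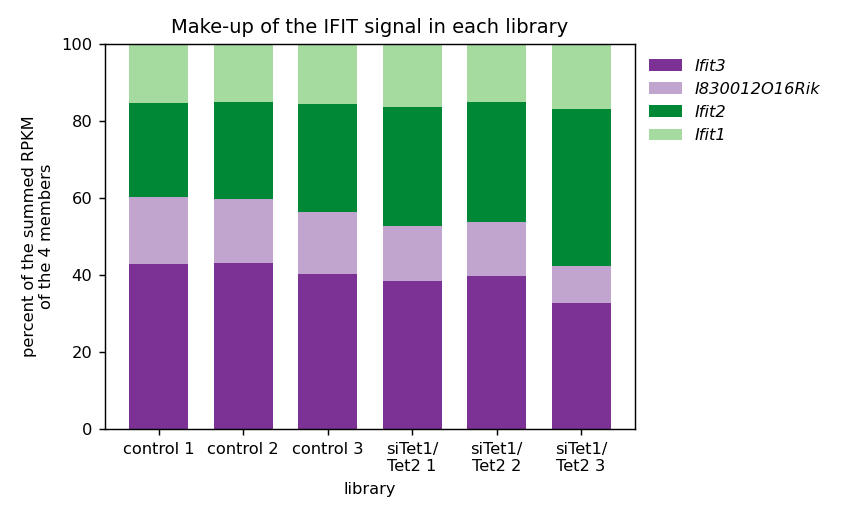
Stacked bars of the percent of the summed RPKM of the 4 members that each member takes, with 1 bar for each of the 6 libraries. Ifit2 takes between 24.3% and 28.0% in control and between 31.0% and 40.8% in siTet1/Tet2 libraries, while Ifit1 keeps between 14.9% and 16.8% in all.

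Within a group, the order of the members by level was only partly resolved. In control libraries Ifit3 was above Ifit2 in each library and Ifit2 above Ifit1 and I830012O16Rik in each, whereas the means of Ifit1 and I830012O16Rik, 37.4 ± 2.13 and 40.9 ± 2.30 RPKM, lay close together. I830012O16Rik was above Ifit1 in each control library and below it in each siTet1/Tet2 library. In siTet1/Tet2 libraries the values of Ifit3 and Ifit2 overlapped, as did those of Ifit1 and I830012O16Rik. The ratio of Ifit3 to I830012O16Rik was between 2.46 and 2.59 in control libraries and 2.71, 2.81 and 3.41 in siTet1/Tet2 replicates, a ratio that depends on how shared reads were assigned.

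The table holds 2 further IFIT genes in the same stretch of chromosome 19, on the minus strand, which lie outside the family list used here. Gm14446, now Ifit1bl1, lies between Ifit3 and I830012O16Rik, and 2010002M12Rik, now Ifit1bl2, lies between I830012O16Rik and Ifit1. Their start sites place Ifit1bl2 and Ifit1 head to head, 146 bases apart, so that their windows overlap by 245 bases and share the 2 matches to the ISRE core shown above for Ifit1. Gm14446 stood at 0.638, 0.963 and 0.947 RPKM in control and 0.036, 0.043 and 0.023 RPKM in siTet1/Tet2 replicates, a 25.0-fold difference in the means. 2010002M12Rik stood at 0.696, 0.732 and 0.979 RPKM in control and 0.069, 0.061 and 0.017 RPKM in siTet1/Tet2 replicates, a 16.4-fold difference. In both the groups did not overlap. No test is attached to them, since they passed the filter on low values only through the control libraries and belong to the family chosen from this contrast. They were at about 2 to 9 estimated reads in the siTet1/Tet2 libraries, and 84 stretches of 100 bases (3.29% of those in Ifit1) are common to Ifit1 and 2010002M12Rik.

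Among the signals that switch on the family, the interferons themselves were at or near the lowest listed value, 0.001 RPKM. None of the 10 interferon ligand genes listed passed the filter on low values, and Ifna1, Ifna2, Ifna4, Ifna5, Ifne, Ifnl2 and Ifnl3 were listed at 0.001 RPKM in all 6 libraries. Ifnb1, the first type I interferon that most cells make, was at 0.001, 0.078 and 0.320 RPKM in control and 0.034, 0.001 and 0.001 RPKM in siTet1/Tet2 replicates. These values come to about 0, 2 and 8 reads against 1, 0 and 0, too few for a comparison. Ifnk was at 0.065, 0.073 and 0.038 RPKM against 0.063, 0.001 and 0.001 RPKM, and Ifng was above the lowest value in 1 library, siTet1/Tet2 replicate 1, at 0.043 RPKM.

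The receptor and its kinases were not lower. Ifnar1, a chain of the type I interferon receptor, rose from 21.8 ± 0.783 to 28.5 ± 1.36 RPKM (SD, n = 3; limma, log2 difference 0.37, adjusted p = 0.00199), against 14.7% of all genes that were higher at that threshold. The other chain, Ifnar2, was at 109.4 ± 9.16 and 110.4 ± 6.12 RPKM (adjusted p = 0.89 with limma). The kinases Jak1 and Tyk2 had log2 differences of 0.15 and 0.10, with adjusted p of 0.0727 and 0.346 by limma.

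The transcription factors that carry the signal to IFIT promoters were mostly lower, all but Irf7 by a smaller fold than the members. Of 6 factors, 5 fell and none rose (limma, adjusted p under 0.05), beside 29.8% lower and 14.7% higher over all genes tested. Stat2, a part of ISGF3, fell from 83.5 ± 5.39 to 18.3 ± 1.08 RPKM, a 4.57-fold difference. Irf9, the DNA-binding part of that complex, fell from 35.5 ± 3.95 to 15.5 ± 1.15 RPKM (2.28-fold). Irf1, which can act on such promoters without ISGF3, fell from 36.5 ± 1.67 to 18.3 ± 1.04 RPKM, with a log2 difference of -0.96. Irf7, itself an interferon-induced gene, went from 296.5, 277.9 and 241.2 to 4.29, 12.3 and 6.85 RPKM. That 34.8-fold difference was of the size seen in the members, and its siTet1/Tet2 replicates stood in the same order. Irf3, which is present in resting cells, was at 19.9 ± 2.52 and 21.1 ± 1.41 RPKM (limma, adjusted p = 0.512).

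The sensors that detect foreign nucleic acid and set off interferon production were mostly lower. Of 9 sensors and adaptors, 7 fell and none rose, beside 29.8% lower and 14.7% higher over all genes tested. The RNA sensors Ddx58 (RIG-I), Dhx58 and Ifih1 (MDA5) fell 6.18-fold, 5.60-fold and 3.61-fold. Mb21d1 (cGAS) fell 2.42-fold, Tlr3 2.08-fold and Tmem173 (STING) 1.62-fold. The adaptor Mavs and the kinase Tbk1 were at 1.10 and 1.01 times the control level (limma, adjusted p = 0.141 and 0.813). Tomm70a, a mitochondrial import receptor reported as a partner of IFIT3, fell 1.21-fold (adjusted p = 0.0151 with limma), a call lost under at least 1 alternative.

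Of the 3 feedback genes, all 3 fell. Usp18, which removes Isg15 from proteins and blocks the receptor, went from 49.4, 53.2 and 45.3 to 0.805, 2.29 and 1.62 RPKM, a 31.4-fold difference. Socs1 and Socs3, inhibitors of Jak kinases, fell 2.75-fold and 2.06-fold. Over ligands, receptors, factors, sensors and feedback together, 22 of 32 genes were tested, of which 15 fell and 1 rose. Over all genes tested 29.8% were lower and 14.7% higher. The median log2 difference was -0.89 for the tested signalling genes and -0.09 for all genes tested. These lists were drawn up with earlier results of these data known, so the counts are not independent evidence of a direction.

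Antiviral effectors outside the IFIT family were lower as well. All 28 of the interferon-induced effectors tested fell (limma, adjusted p under 0.05), beside 29.8% of all genes tested. Their median log2 difference was -2.47, with a range from -4.40 to -1.41. This list was drawn up with earlier results of these data known, so the count is not independent evidence of its direction. The median fold was 6.64 for the effectors and 39.9 for the 4 members, which were themselves chosen from this contrast. Isg15, a ubiquitin-like protein, went from 117.8 ± 3.15 to 4.78 ± 1.77 RPKM (24.7-fold), Ifi44 from 28.3 ± 2.02 to 0.474 ± 0.230 RPKM (59.6-fold) and Oasl1, a relative of the oligoadenylate synthetases, from 28.5 ± 2.28 to 0.543 ± 0.410 RPKM (52.4-fold). The sum of the 4 members per 1000 RPKM of summed effectors was 86.8, 101.9 and 105.4 in control and 10.2, 21.6 and 15.6 in siTet1/Tet2 replicates, a 6.20-fold difference in the ratio. Of the effectors, 11 of 23 with a promoter window held the ISRE core (47.8%).

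**Figure D3:**
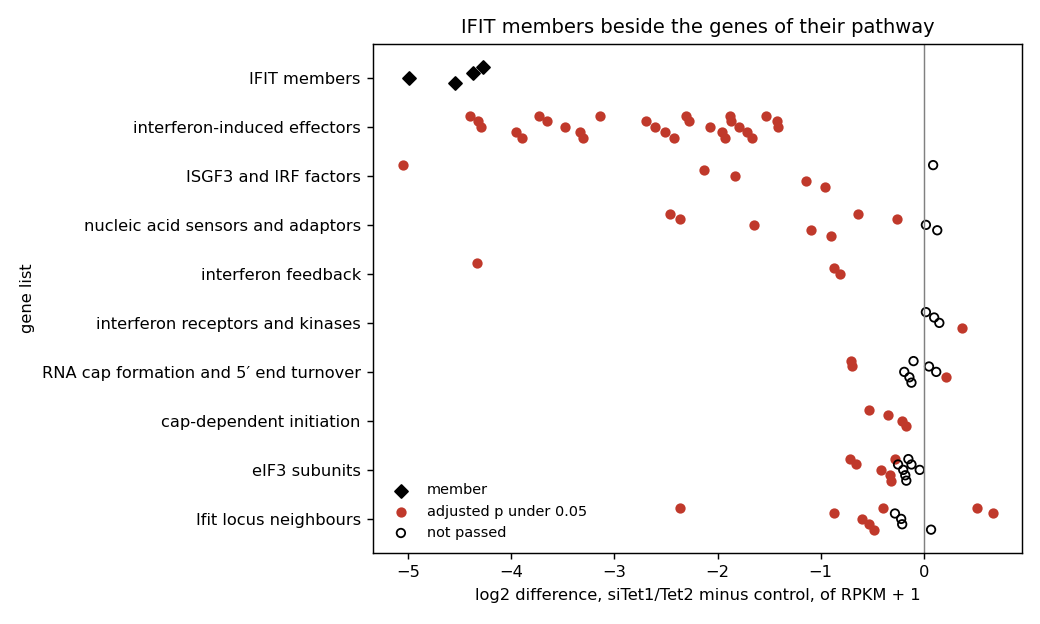
Log2 difference of RPKM + 1 (siTet1/Tet2 minus control, x axis) of each tested gene, by gene list (y axis), with diamonds for the 4 members, filled circles for genes past an adjusted p of 0.05 with limma and open circles for the others. The members lie between -4.99 and -4.27, the effectors between -4.40 and -1.41, and no gene of the 3 lists on RNA caps and translation lies below -0.72.

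The genes of the step on which IFIT proteins act moved little. IFIT proteins distinguish capped from uncapped or incompletely methylated RNA and bind eIF3, so genes of cap formation, cap-dependent initiation and eIF3 were followed, 26 in all. Of these, 12 fell and 1 rose, none by more than 2-fold, and the median log2 difference was -0.20. Over all genes tested 29.8% were lower and 14.7% higher, with a median of -0.09. Cmtr1, the enzyme that methylates the first nucleotide after the cap and is itself interferon-responsive, fell from 41.2 ± 1.66 to 24.8 ± 1.27 RPKM (1.66-fold). The decapping enzyme Dcp2 fell 1.76-fold (limma, adjusted p = 0.00472), and Fam103a1, an activating subunit of the cap methyltransferase, rose 1.16-fold (limma, adjusted p = 0.0477).

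All 4 initiation genes fell, with Eif4e, the cap-binding protein that competes for capped RNA, at 27.9 ± 1.68 and 19 ± 0.669 RPKM. The log2 differences of Eif4g1 and Eif4a1 were -0.35 and -0.21. Of 13 eIF3 subunits 6 fell, among them Eif3e, from 56.3 ± 3.74 to 33.7 ± 0.993 RPKM (1.67-fold). Eif3j1 had a log2 difference of -0.66 and Eif3d of -0.33. The count of 12 became 6 with median ratio scaling of the libraries and 18 after scaling all libraries to one total. It was 16 without control replicate 3, 7 without control replicate 2, 6 without siTet1/Tet2 replicate 1 and 7 without siTet1/Tet2 replicate 2. Among the genes named here, Dcp2, Fam103a1, Eif4g1, Eif4a1 and Eif3d each lost the call under at least 1 alternative. Fam103a1 and Eif4a1 lost it with most single libraries left out.

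The tested genes flanking the cluster moved in both directions, and whether position in the genome plays a part was not tested. Of the 12 nearest tested protein-coding genes, 6 on each side of the cluster, 6 fell and 2 rose (limma), beside 29.8% lower and 14.7% higher over all genes tested. Lipa, a lysosomal lipase whose gene ends 23.1 kb before Ifit2, rose from 558.1, 555.5 and 497.9 to 767.6, 797.0 and 739.3 RPKM, without overlap (limma, log2 difference 0.52, adjusted p = 0.0013). Ch25h, 75.4 kb before Ifit2, which makes 25-hydroxycholesterol and is itself interferon-responsive, fell from 1.97 to 0.625 RPKM in the mean. Farther on that side Fas and Stambpl1 fell, with log2 differences of -0.60 and -0.48, Acta2, smooth muscle actin and a marker of contractile stromal cells, fell 5.03-fold, and Lipn rose 2.34-fold.

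On the side of Ifit1 the nearest tested genes showed no difference past the threshold. Pank1, 156.9 kb away, was at 1.26, 1.31 and 1.55 against 1.67, 1.21 and 1.62 RPKM, and Kif20b, 272.3 kb away, had a log2 difference of -0.28 (limma, adjusted p = 0.573 and 0.231). Slc16a12, only 18.4 kb from Ifit1, was below the filter, at 0.039, 0.088 and 0.060 RPKM against 0.025, 0.038 and 0.001 RPKM. Much farther away Rpp30 and Ankrd1 fell (log2 differences of -0.40 and -0.53). The call of Ankrd1 was lost with no filter, with median ratio scaling or quantile normalization, and with most single libraries left out. Pcgf5 and Hectd2 had adjusted p of 0.101 and 0.116 with limma.

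**Figure D4:**
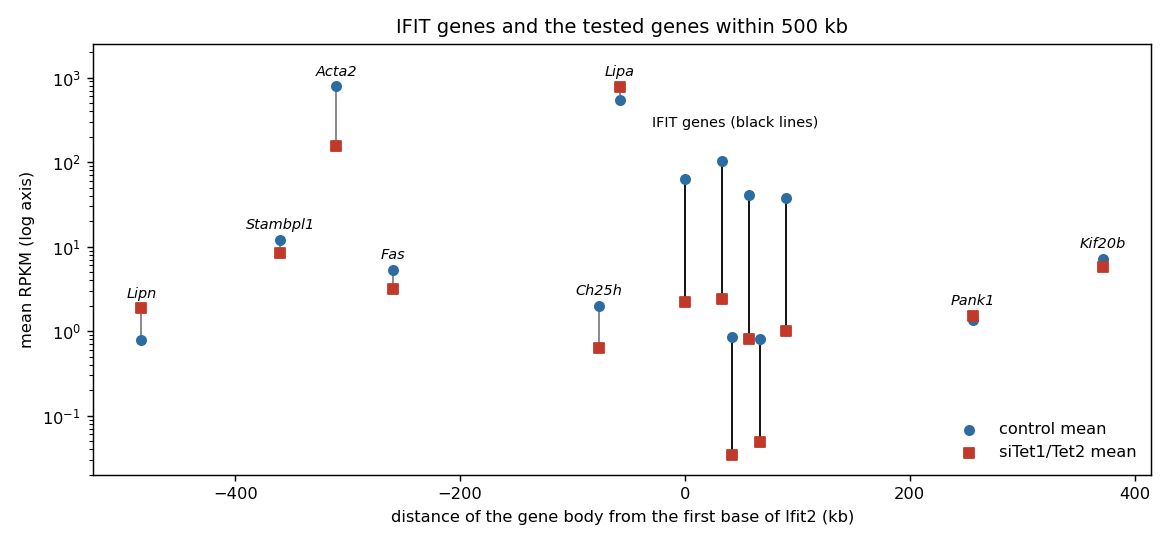
Mean RPKM (log axis) in control (circles) and siTet1/Tet2 (squares) libraries of the IFIT genes and of the tested genes within 500 kb, against the distance of the gene's lower end from the first base of Ifit2 in kb, with a line joining the 2 means of each gene. The 4 members go from between 37.4 and 103.0 RPKM to between 0.818 and 2.40 RPKM, while Lipa on the left of the cluster goes from 537.1 to 768.0 RPKM and Pank1 on its right from 1.37 to 1.5 RPKM.

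The genes with the profile nearest to that of the members were looked for among 11067 genes averaging 1 RPKM or more, by the Euclidean distance of log2(RPKM + 1), centred per gene, over the 6 libraries. Since 2 groups of 3 libraries make up these points, the distance mostly reflects the difference between groups. The 8 nearest were Ccl7 (0.26), Isg15 (0.34), Usp18 (0.35), Ifi44 (0.36), Oasl1 (0.41), Ccl12 (0.75), LOC102639543 (0.77) and Irf7 (0.80). The members themselves lay between 0.22 and 0.58 from their own mean profile, and the median of all other genes was 5.49. Ccl7 and Ccl12 are chemokines that attract monocytes, and Ccl7 went from 480.2, 461.6 and 409.7 to 14.6, 25.7 and 18.4 RPKM. With a pseudocount of 0.1 in place of 1, 5 of the 8 remained among the nearest.

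The labelled cell type and the knockdown bear on every value above. Tet2 fell from 2.57, 4.08 and 3.71 to 0.358, 0.238 and 0.202 RPKM (limma, adjusted p = 2.88e-05), Tet1 was at or below 0.098 RPKM in every library and was not tested, and Tet3 was at 7.03 ± 1.55 and 7.66 ± 0.767 RPKM (limma, adjusted p = 0.508). Of the stromal markers, Ly6a (Sca-1) averaged 152.2 RPKM, Eng (CD105) 23.8 RPKM, Pdgfra 9.92 RPKM, Pdgfrb 30.2 RPKM and Col1a1 488.4 RPKM in control libraries. Thy1 (CD90), Lepr and Lum were at or below 0.146 RPKM in every library, and Nt5e (CD73) was at or below 1.02 RPKM. Macrophage markers other than Cx3cr1 were abundant in both groups, with Lyz2 between 3547 and 5013 RPKM in control and between 9842 and 12728 RPKM in siTet1/Tet2 libraries. In control libraries Cd68 averaged 874.8 RPKM, Csf1r 499.5 RPKM and Emr1 304.5 RPKM, whereas Cx3cr1 averaged 0.487 RPKM. Markers of other marrow cells were near 0, with 2 of 11 reaching the filter, of which Pecam1 rose from 0.175 ± 0.0492 to 0.377 ± 0.0746 RPKM, a call lost under some alternatives.

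The marker lists moved with the groups in opposite directions. The sum of 18 stromal markers was 1245, 1163 and 1673 RPKM in control and 206.8, 262.8 and 356.9 RPKM in siTet1/Tet2 replicates, a 4.94-fold difference. Without Col1a1 and Col1a2, which carry most of it, the sum of the other 16 was 3.43-fold lower. Of the 15 tested, 12 fell, among them Ly6a, Cxcl12 and Col3a1, and Vcam1 rose. Ly6a is also interferon-responsive and is part of both stromal sums. The shares over all genes tested were 29.8% lower and 14.7% higher. The sum of 16 macrophage markers was 11331, 10540 and 8463 RPKM against 19865, 18731 and 16811 RPKM, 1.83-fold higher. Lyz2 carries much of that sum, and the other 15, taken alone after the data were seen, went from 5672 to 7148 RPKM in the mean, 1.26-fold higher, while the median log2 difference of the list was 0.20. Of the 16, 8 rose, among them Lyz2 and Tyrobp (Lyz2 did not pass after quantile normalization), and 3 fell, among them Fcgr1, an interferon-responsive receptor, from 109.1 ± 10.0 to 27.8 ± 2.53 RPKM. In bulk RNA, fewer cells of a type and less RNA per cell cannot be told apart, and the part of the cell make-up in the IFIT difference was not tested.

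**Figure D5:**
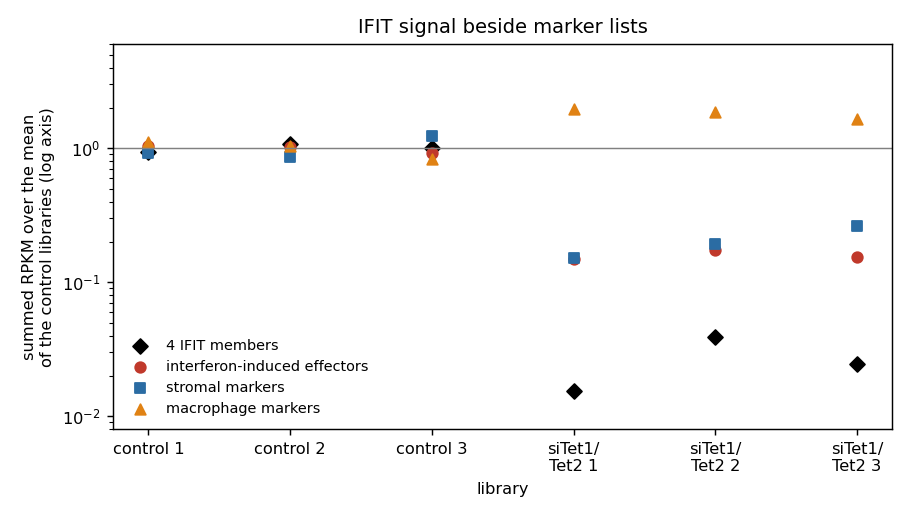
Summed RPKM of the 4 IFIT members, the 28 interferon-induced effectors, 18 stromal markers and 16 macrophage markers in each of the 6 libraries, divided by the mean of the 3 control libraries, on a log axis; Lyz2 carries much of the macrophage sum. In siTet1/Tet2 libraries the members lie below the effectors and the stromal markers, which are 6.28-fold and 4.94-fold lower in the mean, and the macrophage markers lie above 1.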

How the data were processed

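RNA-seq of 3 control and 3 siTet1/Tet2 libraries was examined. The authors trimmed adaptors, mapped paired-end reads to GRCm38, estimated abundance with DNASTAR Lasergene and deposited linear RPKM (FPKM in their methods) in one table; its column with the p-values of their own comparison was not used, and every column of library values was. The annotation, the strand setting and the fate of reads matching several places are not given in the sources used here. Symbols listed more than once were represented by their highest row, and each member had 1 row.

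Two-sided comparisons used limma 3.58.1 (R 4.3.3; lmFit, then eBayes with trend) on log2(RPKM + 1), the added 1 being the pseudocount, over the 13266 genes averaging 0.1 RPKM or more, with Benjamini-Hochberg adjustment over all of them. Folds are ratios of mean RPKM, except that the 2-fold cut on calls was made on RPKM + 1. Log2 differences, which carry the pseudocount, understate the change of low genes. A single gene with 3 libraries against 3 cannot reach an exact permutation p below 0.1, so each call rests on the variance limma shares across genes. The code was tested on simulated data.

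The members and the gene lists were chosen with earlier results of these data known. Named were the members, the other IFIT genes, all genes of the interferon signalling lists, the 3 largest changes past the threshold without overlap in each other list, the flanking genes, the TET genes and the 8 nearest profiles. Mx1 and Mx2, of the 30 effectors listed, were not analysed here, and 1 gene of the signalling lists is counted but not reported here.

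Depth was taken as the read total that best turned small RPKM values into whole reads. In each library 54.9% to 58.1% of them came within 0.1 of a whole read, so no count test was run. The estimate was between 32400000 and 38900000 reads per library, and read numbers cover counting error only. Promoter windows were RefSeq sequences (GRCm38.p6) and transcripts GENCODE M21, read with Biopython 1.88.

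The labels share replicate numbers between groups. Deviations from group means, correlated over genes, gave r of 0.149, 0.117 and 0.462 for replicates 1, 2 and 3, all over 0.1, so a further fit took the numbers as pairs; the pairing rests on these values alone, and control replicate 1 with siTet1/Tet2 replicate 2 reached 0.332. Other alternatives were pseudocounts of 0.1 and 0.01, no filter and a filter at 1 RPKM, 3 other scalings and eBayes without trend. Further ones were each library left out in turn, summed duplicate rows and the thresholds of the study, with the fold taken on RPKM + 1. Marker sums without Lyz2, and without Col1a1 and Col1a2, were added after seeing the data.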

Additional observations from a re-analysis of the deposited data

How the results depend on the processing

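All 4 members stayed lower in siTet1/Tet2 libraries under each of the 16 alternatives. Their log2 differences ranged from -5.27 to -4.09 for Ifit1, -4.94 to -4.11 for Ifit2, -5.53 to -4.79 for Ifit3 and -5.75 to -4.38 for I830012O16Rik, and with each library left out in turn from -4.41 to -4.12, -4.54 to -4.11, -5.26 to -4.79 and -4.75 to -4.45. The thresholds of the study were taken as an unadjusted p under 0.05 with a fold change over 2 in RPKM + 1. There the count of lower genes went from 15 to 9 for interferon signalling and from 12 to 0 for the translation genes. For the flanking genes it went from 6 to 1, and the count of higher ones from 2 to 0. Left out through the added 1 were Socs1, Socs3, Tlr3, Ch25h and Lipn, whose mean RPKM differed by more than 2-fold. The count of lower translation genes became 6 with no filter and 6 with median ratio scaling, and ranged from 6 to 16 with each library left out; why it changed was not tested beyond this. With the replicate block the translation count was 15 and the count of members 4, and the block changed no other call of a named gene and no count by over 1.5 times. Of 956 values of 60 other named genes, 905 kept their direction and side of the threshold, 44 from 9 genes lost the threshold, 7 from 4 genes gained it and 0 reversed. Over all genes, 3952 lower and 1953 higher calls became 2514 and 1230 with no filter, and 2624 and 3604 after quantile normalization. The median log2 difference of all genes was -0.09 as deposited, -0.01 after median ratio scaling and 0.06 after quantile normalization. After quantile normalization Lyz2 no longer passed (log2 difference 0.06, adjusted p = 0.459 with limma). Depth limits the interferon ligands and the low paralogs.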
